A study of Saccharomyces cerevisiae with 12 samples.

Results

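The genes ACT1, PMA1, ALG9, TAF10, TFC1 and UBC6 are widely used in budding yeast as reference genes, against which the mRNA of other genes is measured. They were chosen by gene name, and all 6 were found among the 6775 genes of the count tables. The study asked how Cyc8p shapes transcription with and without flocculation, the clumping of cells, and RNA-seq was run on 12 samples of Saccharomyces cerevisiae in 4 groups of 3. The question here was which of the 6 genes stayed constant when Cyc8p was lost.

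All samples came from the Cyc8-AA strain, built in the HHY221 background. Every group, controls included, therefore shared its alleles: mating type Mata, tor1-1 and fpr1::loxP-LEU2-loxP, which make growth insensitive to rapamycin, the FKBP12-tagged ribosomal protein of RPL13A2xFKBP12::loxP, and the tagged CYC8-FRB::HIS3. Rapamycin joins FKBP12 to FRB and so draws the tagged Cyc8p out of the nucleus (anchor-away). Cultures grew at 30 °C in YPD with 2% glucose. The Flo- experiment compared +Rap+Man cultures, given rapamycin at 1 µg/ml and mannose at 0.25 M, with -Rap+Man cultures, given mannose without rapamycin. Mannose keeps flocculin proteins from binding neighbouring cells. The Flo+ experiment compared +Rap cultures, given rapamycin without mannose and free to flocculate, with -Rap cultures, given neither. Rapamycin was dissolved in DMSO, and both control groups were given DMSO without it. RNA was taken after 4 h. The Flo- libraries were sequenced with single-end reads and the Flo+ libraries with paired-end reads at another time, so that a difference between the experiments cannot be told apart from run and read type. No group of an untagged strain with rapamycin was analysed here.

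Total counts per sample were 35905327 to 51088194 in Flo- and 26125728 to 30562700 in Flo+. FLO11, a flocculin gene repressed by Cyc8p, had 275255 to 299083 normalized counts in +Rap+Man against 186 to 286 in -Rap+Man, and 222547 to 326569 in +Rap against 264 to 321 in -Rap. Normalized counts are read counts scaled by TMM factors, which set the bulk of genes level between samples, to a library of mean size. CYC8 mRNA does not check the labels, because anchor-away moves the protein. Fewer cells and less RNA per cell cannot be told apart in these bulk samples.

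The Tup1-Cyc8 complex is a corepressor that DNA-binding repressors such as Nrg1, Mig1, Sko1 and Rox1 bring to promoters. Reference genes are picked from processes that every growing cell needs, so that their mRNA is taken to be steady. ACT1 encodes actin, and PMA1 encodes the proton pump of the plasma membrane. ALG9 encodes a mannosyltransferase of N-glycan assembly in the endoplasmic reticulum. TAF10 encodes a subunit that TFIID and the coactivator SAGA share, and TFC1 encodes a subunit of TFIIIC, an initiation factor of RNA polymerase III at tRNA genes. UBC6 encodes a ubiquitin-conjugating enzyme of the endoplasmic reticulum membrane.

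The 6 genes lie on 6 chromosomes of the R64 reference (RefSeq). ACT1 (YFL039C) spans chrVI:53260-54696 on the minus strand with 2 coding exons and 1128 coding bases. PMA1 (YGL008C) spans chrVII:479910-482666 on the minus strand with 2757 coding bases. ALG9 (YNL219C) lies at chrXIV:235996-237663 on the minus strand with 1668 coding bases. TAF10 (YDR167W) is the shortest, with 621 coding bases at chrIV:789449-790069 on the plus strand. TFC1 (YBR123C) lies at chrII:484742-486691 on the minus strand with 1950 coding bases, and UBC6 (YER100W) at chrV:359562-360314 on the plus strand with 753. Apart from ACT1 each has 1 coding exon, and none of the 6 overlaps another gene annotated there. Of the 6775 gene identifiers counted, 6216 were found in this annotation, and overlap with the others was not checked.

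PMA1 is the only member with a near copy, PMA2, which encodes a second proton pump. Over 2756 coding bases aligned without a gap, 81.9% are identical. The most alike and the least alike stretch of 90 bases are shown because reads from the first can hardly be assigned to 1 gene, whereas reads from the second can. Capitals mark the bases that differ, 1 in the first pair (bases 1855 to 1944 of PMA1) and 39 in the second (bases 132 to 221).
PMA1, most alike: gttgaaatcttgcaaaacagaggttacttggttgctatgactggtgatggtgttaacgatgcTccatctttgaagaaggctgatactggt
PMA2, most alike: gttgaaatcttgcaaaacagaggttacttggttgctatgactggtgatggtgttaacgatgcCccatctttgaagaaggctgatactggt
PMA1, least alike: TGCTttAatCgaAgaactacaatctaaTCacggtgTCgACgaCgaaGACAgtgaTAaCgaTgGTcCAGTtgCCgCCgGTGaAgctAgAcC
PMA2, least alike: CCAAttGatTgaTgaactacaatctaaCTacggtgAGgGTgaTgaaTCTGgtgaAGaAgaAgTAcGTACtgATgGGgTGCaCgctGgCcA
How reads that fit both genes were counted is not given in the sources used here. PMA2 was far below PMA1, with 911 to 1173 normalized counts in +Rap+Man, 768 to 974 in -Rap+Man, 424 to 535 in +Rap and 348 to 650 in -Rap, so PMA2 reads could add little to the PMA1 values below, whereas PMA2 values could in part be reads of PMA1.

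The 500 bases before each start codon were searched on both strands for short words bound by repressors that recruit Cyc8p. The Nrg1 words CCCCT and CCCTC were found before ACT1, PMA1, ALG9 and UBC6, and before 53.1% of the 6019 promoters searched. At PMA1 the 2 words overlap. The Sko1 word ACGTCA was found before TAF10 and before 13.4% of promoters, and the Rox1 word ATTGTT before PMA1, ALG9 and UBC6 and before 48.9%. No member had a Mig1 word, CCCCGC or CCCCAC, which 13.5% of promoters hold. The TATA word TATAAA was found before ACT1, PMA1 and TFC1 and before 60.6% of promoters. TFC1 was the only member with none of the repressor words in this window. The Nrg1 words nearest to the start codons of ACT1 (138 bases) and ALG9 (134 bases), and the Sko1 word of TAF10 (371 bases), are shown with the bases around them, the word in capitals. The strand is that of the gene, so that the words of ALG9 and TAF10, found on the other strand, read as their reverse complement.
ACT1, chrVI:54817-54846: gtattcttccttCCCCTttctactcaaacc
ALG9, chrXIV:237780-237809: aactggatatacAGGGGtgtttttgacaca
TAF10, chrIV:789066-789095: taatatgtcgaaTGACGTttcaacgccaag
A match is only a run of letters, and binding was not measured in these samples.

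The levels of the 6 genes fell into 3 ranges. Per kilobase of coding sequence, ACT1 had 169124 ± 16401 normalized counts in +Rap+Man, 94747 ± 14074 in -Rap+Man, 164205 ± 17471 in +Rap and 127602 ± 16991 in -Rap (SD, n = 3 each). PMA1 had 101688 ± 12412, 121845 ± 19750, 119594 ± 15572 and 129921 ± 34465 per kilobase in the same 4 groups (SD, n = 3 each). ACT1 and PMA1 were therefore the highest, and ACT1 stood above PMA1 in both depleted groups, while in -Rap their spreads overlapped. ALG9, TAF10 and UBC6 lay between 2303 and 3537 per kilobase in every group mean. In -Rap+Man, TAF10 at 3217 ± 968, UBC6 at 2971 ± 334 and ALG9 at 2918 ± 106.2 per kilobase did not differ beyond their spread (SD, n = 3 each). TFC1 was the lowest member in each group, with 281 ± 5.99 per kilobase in +Rap+Man, 577 ± 105 in -Rap+Man, 545 ± 20.04 in +Rap and 556 ± 49.0 in -Rap (SD, n = 3 each).

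ACT1 was higher in depleted cells of both experiments with TMM factors, although only the Flo- change passed the test. In Flo-, ACT1 had 205914, 196252 and 170151 normalized counts in +Rap+Man, against 124475, 93635 and 102514 in -Rap+Man. All +Rap+Man samples stood above all -Rap+Man samples. The log2 change was 0.87 (95% interval 0.44 to 1.30, limma adjusted p = 0.0048), a 1.83-fold level. In Flo+, ACT1 had 170474, 207605 and 177589 normalized counts in +Rap, against 133373, 132374 and 166059 in -Rap. The groups again did not overlap, although the lowest +Rap sample and the highest -Rap sample were close. The log2 change of 0.37 (0.04 to 0.70) did not pass the test (limma adjusted p = 0.066). Of 14 alternative settings it passed under 1, without -Rap replicate 3, at 0.48. With samples scaled by total counts the Flo- change of ACT1 was 0.25 and did not pass (limma adjusted p = 0.11). On that scale the Flo+ change was 0.02 (limma adjusted p = 0.87). The ACT1 changes of the experiments differed by 0.47 (-0.03 to 0.98), which did not pass the test of the difference (limma adjusted p = 0.19).

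With TMM factors PMA1 gave no change that passed the test, but its replicates were the most scattered in -Rap. In Flo-, PMA1 had 270589, 318395 and 252077 normalized counts in +Rap+Man, against 377220, 274217 and 356342 in -Rap+Man. In Flo+, PMA1 had 289286, 374778 and 325099 in +Rap, against 353952, 455261 and 265366 in -Rap. The groups overlapped in both experiments. The log2 change was -0.23 (-0.74 to 0.29, limma adjusted p = 0.43) in Flo- and -0.09 (-0.57 to 0.39, limma adjusted p = 0.75) in Flo+. The coefficient of variation among -Rap replicates was 26.5%, against 4.6% for ALG9 in the same libraries, and without -Rap replicate 2 the Flo+ log2 change of PMA1 was 0.10. The Flo- interval of PMA1 takes in a fall of 1.5-fold.

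ALG9 was a little higher in depleted cells in Flo-, and its replicates were the tightest of the 6 genes in both control groups. In Flo-, ALG9 had 6258, 5839 and 5600 normalized counts in +Rap+Man, against 4799, 4735 and 5069 in -Rap+Man. The groups did not overlap, and the log2 change of 0.31 (0.05 to 0.56) passed the test by a small margin (limma adjusted p = 0.045). In Flo+, ALG9 had 4366, 5292 and 4357 in +Rap, against 5545, 5216 and 5067 in -Rap. The groups overlapped through +Rap replicate 2, and the log2 change was -0.18 (-0.45 to 0.09, limma adjusted p = 0.25). The difference of 0.46 between the experiments did not pass the test (limma adjusted p = 0.062). The Flo- call of ALG9 was lost under 7 of 14 alternative settings. When samples were scaled by their total counts it turned to a fall of -0.31 that passed the test (limma adjusted p = 0.045).

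TAF10 fell in Flo+, and 1 library stood apart for it in Flo-. In Flo+, TAF10 had 1567, 1382 and 1420 normalized counts in +Rap, against 1988, 2016 and 2289 in -Rap. Every +Rap sample lay below every -Rap sample, and the log2 change was -0.52 (-0.78 to -0.27, limma adjusted p = 0.0066). In Flo-, TAF10 had 1701, 2105 and 1967 in +Rap+Man, against 1306, 2288 and 2399 in -Rap+Man. The lowest of all 12 samples was -Rap+Man replicate 1, and the log2 change was 0.02 (-0.47 to 0.51, limma adjusted p = 0.94) with it and -0.24 without it. The difference between the experiments, 0.52 (-0.08 to 1.11), did not pass the test (limma adjusted p = 0.23).

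TFC1 fell in Flo-, by the largest change in size of the 6 genes in either experiment. In Flo-, TFC1 had 557, 535 and 554 normalized counts in +Rap+Man, against 1337, 1108 and 928 in -Rap+Man. The +Rap+Man replicates lay close together and below every other sample of the series. The log2 change was -0.99 (-1.36 to -0.61, limma adjusted p = 0.0011), a level 0.505 times that of -Rap+Man. In Flo+, TFC1 had 1084, 1019 and 1088 in +Rap, against 1178, 1089 and 987 in -Rap. The groups overlapped, and the log2 change was -0.02 (-0.28 to 0.23, limma adjusted p = 0.88). Here the difference itself was tested, and it passed at -0.99 (-1.40 to -0.58, limma adjusted p = 0.0057).

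UBC6 was a little lower in depleted cells of both experiments. In Flo-, UBC6 had 1807, 1872 and 1979 normalized counts in +Rap+Man, against 1977, 2255 and 2479 in -Rap+Man. The groups met at +Rap+Man replicate 3 and -Rap+Man replicate 1, and the log2 change was -0.21 (-0.50 to 0.07, limma adjusted p = 0.19). In Flo+, UBC6 had 1802, 1659 and 1741 in +Rap, against 2121, 2083 and 2449 in -Rap. These groups did not overlap, and UBC6 fell by 0.35 on the log2 scale (limma adjusted p = 0.032), a call lost when any of 4 single samples was left out. The difference between the experiments was 0.11 (-0.24 to 0.46), the only one of the 6 whose whole interval lay within 1.5-fold.

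**Figure D1:**
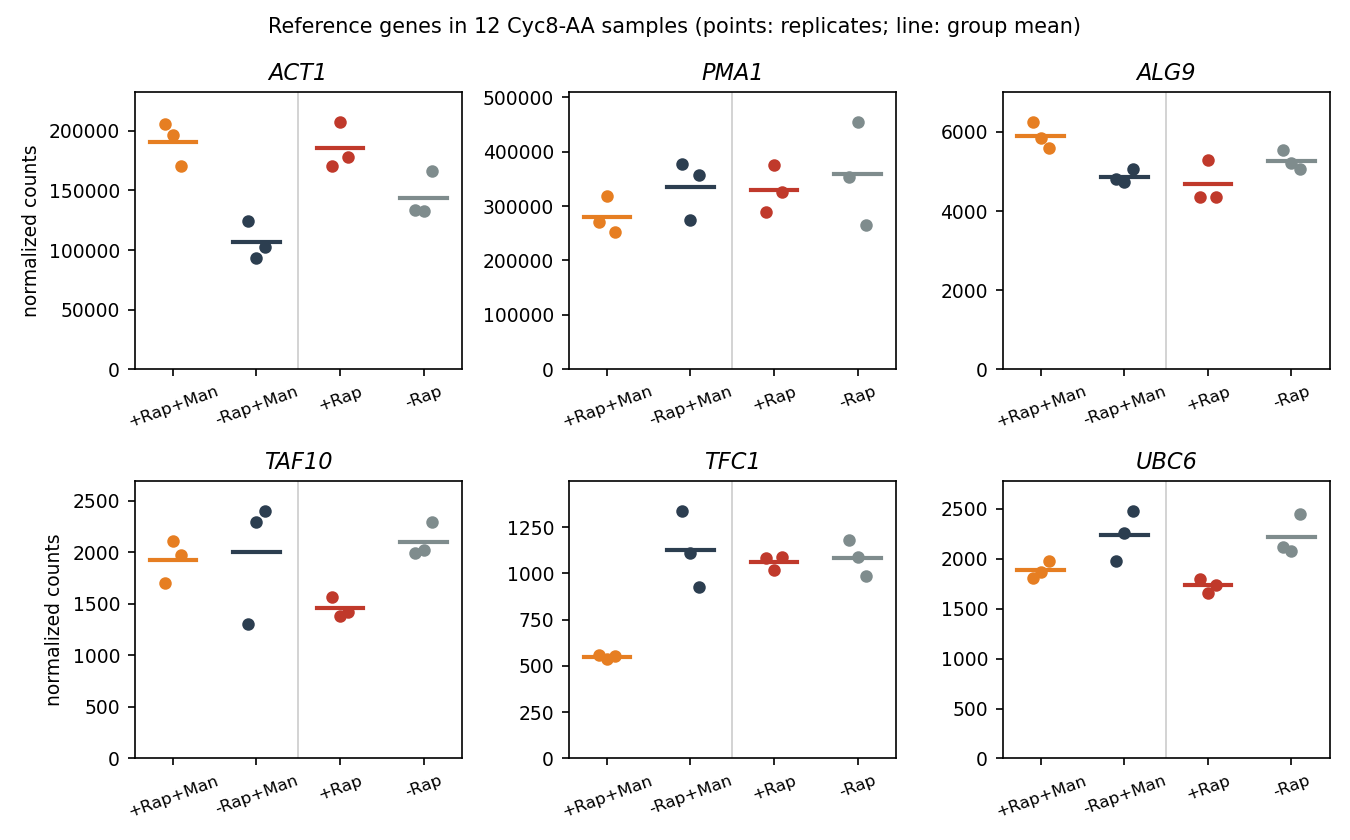
Normalized counts of the 6 reference genes (vertical axis, from 0) in the 4 groups, with 1 point per replicate and a line at the group mean. TFC1 lies at 535 to 557 in +Rap+Man and at 928 or more in every other sample, and ACT1 is higher in both depleted groups than in their controls.

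Counted together, none of the 6 genes was called at the study's thresholds, an adjusted p up to 0.01 together with a 2-fold change or more (1 on the log2 scale), in Flo-, in Flo+ or in the difference between them. Of all genes tested, 17.4% were called in Flo-, 13.1% in Flo+ and 3.76% in the difference. TFC1 was nearest to the limit of size, at -0.99 both in Flo- and in the difference, and it was called under 6 of 14 alternative settings in Flo- and 3 of 19 for the difference. ACT1 in Flo- was called under 1 of 14. At an adjusted p of at most 0.05 with a change of any size, 3 of 6 members were called in Flo- (ACT1 and ALG9 higher, TFC1 lower), against 51.8% of all genes. In Flo+, 2 of 6 were called (TAF10 and UBC6 lower), against 43.4% of all genes. For the difference, 1 of 6 was called (TFC1), against 13.8% of all genes. Groups did not overlap for 3 of 6 members in Flo- (ACT1, ALG9 and TFC1), against 61.1% of all genes, and for 3 of 6 in Flo+ (ACT1, TAF10 and UBC6), against 56.1%.

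A gene can miss a test and still have moved, so constancy was also read from intervals. The whole 95% interval lay within a 1.5-fold change either way for 3 of 6 members in Flo- (ALG9, TAF10 and UBC6), against 20.3% of all genes. It did so for 3 of 6 in Flo+ (PMA1, ALG9 and TFC1), against 35.4%. With TMM factors, ALG9 alone was within 1.5-fold in both experiments, and 12.4% of the 5987 genes tested in both were. These readings were not firm for every gene. Scaled by total counts, ACT1 instead lay within 1.5-fold in both experiments (-0.04 to 0.55 in Flo-, -0.25 to 0.30 in Flo+). ALG9 on that scale did so in neither (-0.59 to -0.03 in Flo-, -0.80 to -0.24 in Flo+). In Flo-, ALG9 kept within the limits under 9 of 14 alternative settings, TAF10 under 8 and UBC6 under 11, and in Flo+, PMA1 did so under 8 of 14, ALG9 under 13 and TFC1 under 13. With 6 genes these shares are descriptions, and none of them sets the members apart from other genes.

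**Figure D2:**
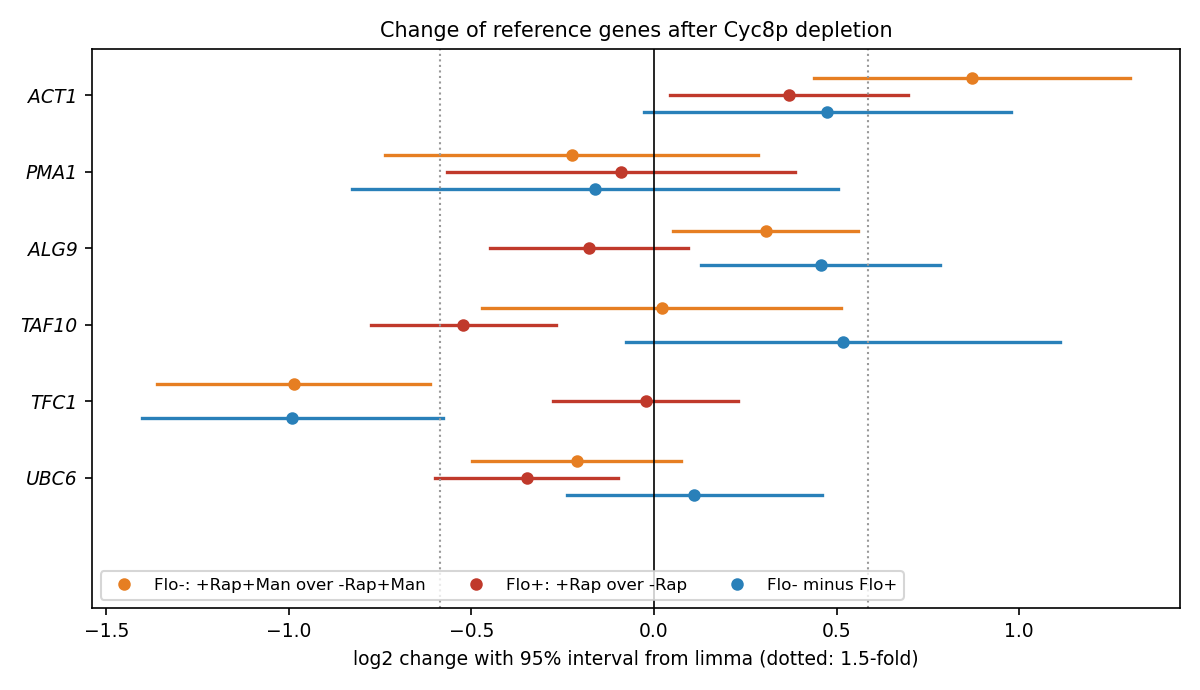
Log2 change of each reference gene with its 95% interval from limma (horizontal axis) in Flo- (+Rap+Man over -Rap+Man), in Flo+ (+Rap over -Rap) and for the difference of these changes. Dotted lines mark a 1.5-fold change. The ALG9 intervals of both experiments lie between them, and the TFC1 intervals of Flo- and of the difference lie at or beyond the lower line.

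The scale set on the samples bears directly on whether a reference gene is called constant. TMM scaling put the median log2 change of all genes at -0.04 in Flo- and -0.02 in Flo+, whereas scaling by total counts put it at -0.65 and -0.36. Of the genes called at the study's thresholds, 85.1% were higher in depleted cells in Flo- and 84.1% in Flo+ with TMM scaling, against 25.1% and 50.2% with total counts. As a share of all counts, ACT1 took 3889 ± 268 counts per 1000000 counts in +Rap+Man against 3268 ± 365 in -Rap+Man, and 4732 ± 245 in +Rap against 4675 ± 650 in -Rap (SD, n = 3 each). On that scale the log2 change of ACT1 in Flo- was 0.25 (limma adjusted p = 0.11) and that of TFC1 -1.60, while PMA1, UBC6 and TAF10 stood at -0.84, -0.83 and -0.60. The falls of PMA1 and UBC6 passed the test there (limma adjusted p = 0.00032 and 0.00087). ALG9, at -0.31, also passed there as a fall (limma adjusted p = 0.045). For TAF10 in Flo- the lowest limma adjusted p under any alternative setting was 0.046. A change of scale adds about the same amount to every gene, so the position of a gene relative to the median of all genes hardly depends on it by construction. In Flo-, ACT1 stood 0.91 above the median gene with either scale, ALG9 0.35 above it with TMM factors and 0.34 with total counts, and TFC1 at -0.94 and -0.95. In Flo+, ACT1 stood 0.38 above the median gene and TAF10 at -0.51, with either scale. The directions given for single genes and lists here are therefore those relative to the bulk of genes. Which scale is nearer to mRNA per cell was not tested, since no spike-in was analysed here.

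Ratios of 1 member to another within a sample do not depend on scaling and are given as a description, with no test. The mean ratio of ACT1 to every other member was higher in depleted cells in both experiments. The mean log2 ratio of ACT1 to UBC6 was 6.66 ± 0.21 in +Rap+Man against 5.57 ± 0.35 in -Rap+Man, and 6.73 ± 0.21 in +Rap against 6.01 ± 0.06 in -Rap (SD, n = 3 each), changes of 1.08 and 0.72. Against TFC1 the ACT1 ratio changed by 1.86 in Flo-, a 3.62-fold change between 2 genes both in use as references, and by 0.39 in Flo+.

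Over all 12 samples TAF10 and UBC6 kept the closest ratio to each other, with an SD of 0.19 on the log2 scale. Their log2 ratio was -0.09, 0.17 and -0.01 in +Rap+Man, -0.60, 0.02 and -0.05 in -Rap+Man, -0.20, -0.26 and -0.29 in +Rap, and -0.09, -0.05 and -0.10 in -Rap. Apart from -Rap+Man replicate 1, each of these was 0.29 or less in size. The SD in Flo- alone was 0.26, against 0.25 for PMA1 to UBC6, and in Flo+ the ratios of the +Rap and -Rap groups did not overlap. The ratio of ALG9 to UBC6 changed by 0.52 in Flo- and 0.17 in Flo+, and that of PMA1 to UBC6 by -0.01 in Flo- and 0.26 in Flo+. The small Flo- value of PMA1 to UBC6 has a standard error of 0.22.

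**Figure D3:**
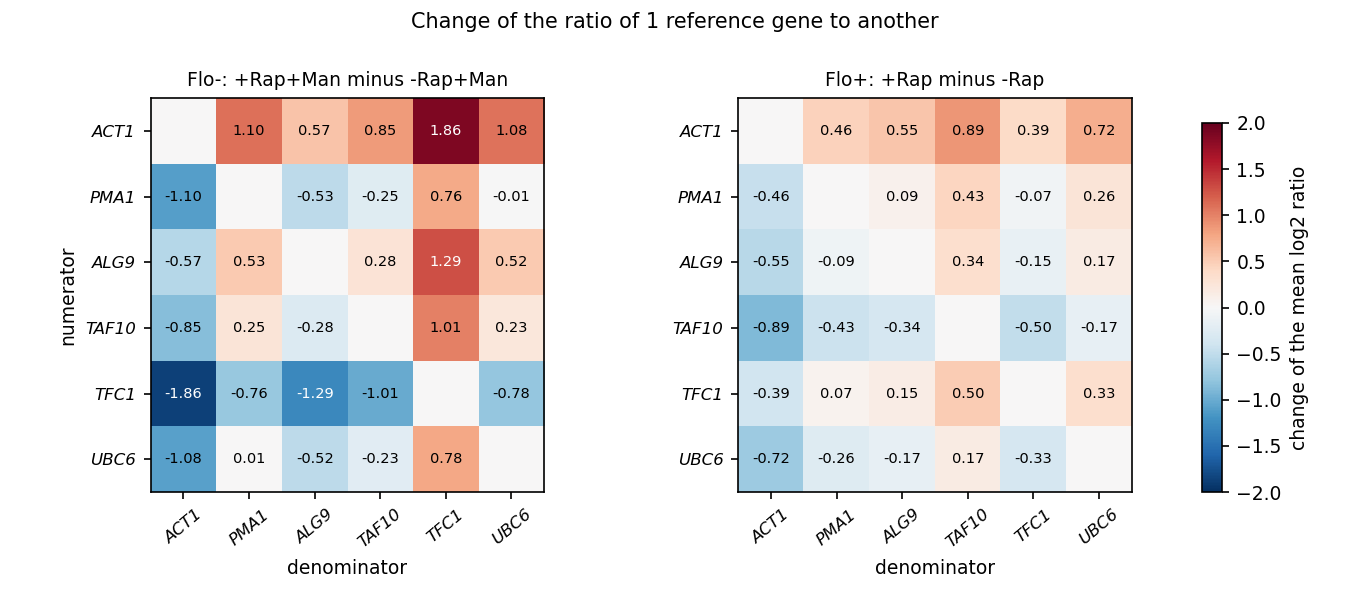
Change of the mean log2 ratio of 1 reference gene (rows) to another (columns), +Rap+Man minus -Rap+Man in Flo- and +Rap minus -Rap in Flo+. The ACT1 row is positive throughout in both panels, and the TFC1 row is negative throughout in Flo-, the largest change being the 1.86 of ACT1 over TFC1.

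The stability measure M, as in geNorm, averages for each gene the SD over samples of its log2 ratio to each of the other 5. A low M marks a gene whose ratios to the other members varied little, which genes that move together also give. Over all 12 samples M was 0.35 for UBC6, 0.36 for ALG9, 0.40 for PMA1, 0.43 for TAF10, 0.55 for ACT1 and 0.56 for TFC1. UBC6 and ALG9 lay too close to be ordered, and so did ACT1 and TFC1. In Flo- alone the lowest were UBC6 at 0.39 and ALG9 at 0.42, and the highest were TFC1 at 0.70 and ACT1 at 0.66. In Flo+ alone ALG9 at 0.24 and TFC1 at 0.26 were lowest and ACT1 at 0.40 highest. TFC1 was thus among the lowest in Flo+ and the highest in Flo-.

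Against all genes kept by the filter, ALG9 and UBC6 were among the steadier ones with TMM factors. These genes were not matched to the members by level, and the SDs were computed on no other scale. The SD of log2 normalized counts over 12 samples was 0.16 for ALG9, and 2.4% of genes had a smaller SD. It was 0.19 for UBC6 (4.7% of genes smaller), 0.26 for PMA1 (14.6%), 0.31 for TAF10 (24.4%), 0.38 for ACT1 (37.9%) and 0.46 for TFC1 (49.8%). ACT1 and TFC1 thus stood near the middle of all genes. The highest sample was 1.44 times the lowest for ALG9, 1.49 times for UBC6, 2.22 times for ACT1 and 2.49 times for TFC1. Among the 2474 genes whose count reached 1000 in each library, the smallest SDs were those of CKB1 (0.051), CDC25 (0.059), YOL057W (0.078), PPH21 (0.081) and MED2 (0.087). CKB1, a regulatory subunit of casein kinase 2, ran between 3744 and 4248 normalized counts over all 12 samples. These 5 were picked for low spread in these samples, which is a description and no test.

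Several references can also be averaged, here with TMM factors only, and such a mean depends on the scale of the samples. With total counts ALG9 changed by -0.31 in Flo- and -0.52 in Flo+, and UBC6 by -0.83 and -0.69. In Flo- the mean of all 6 takes in ACT1 at 0.87 and TFC1 at -0.99, which are opposite in direction. The mean log2 level of all 6 changed by -0.07 ± 0.04 in Flo- and by -0.13 ± 0.03 in Flo+ (standard error, n = 3 per group). Without ACT1 the mean of the other 5 changed by -0.25 ± 0.05 in Flo- and -0.24 ± 0.04 in Flo+, and the mean of ALG9 and UBC6 by 0.02 ± 0.06 in Flo- and -0.27 ± 0.04 in Flo+.

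The study normalized its RT-qPCR to ACT1, and SWI5, SUL2 and PHO5 were among the genes so measured. PMA1 was so measured as a control gene, and the study reported it as constant in Cyc8-AA after rapamycin, with no mannose named. In the read counts here, the log2 ratio of ACT1 to PMA1 changed by 1.10 ± 0.12 in Flo- and 0.46 ± 0.33 in Flo+ (standard error, n = 3 per group). The log2 change in read counts of SWI5, SUL2 and PHO5 was recomputed against each reference in turn. Each value is the change of the gene less that of the reference. The order of the references is therefore the same for every gene by construction. SWI5, a transcription factor of late mitosis, changed in Flo- by -2.50 ± 0.17 relative to ACT1 and by -0.64 ± 0.16 relative to TFC1, with the other 4 references between -1.93 and -1.40 (standard error, n = 3 per group). In Flo+ its change ran from -0.40 ± 0.23 relative to ACT1 to 0.49 ± 0.24 relative to TAF10. SUL2, a sulfate permease, changed in Flo- by -1.05 ± 0.27 relative to ACT1, by 0.03 ± 0.13 relative to UBC6 and by 0.81 ± 0.22 relative to TFC1. The sign of SUL2 in Flo- thus turned with the reference, although with PMA1 (0.04 ± 0.30) and UBC6 its change was smaller than its standard error. In Flo+ all 6 references gave a positive change for SUL2, from 0.53 ± 0.22 with ACT1 to 1.42 ± 0.19 with TAF10. PHO5, an acid phosphatase, was higher in Flo- with every reference, by 0.50 ± 0.18 with ACT1 and 2.35 ± 0.11 with TFC1, and lower in Flo+ with every reference, by -1.23 ± 0.21 with ACT1 and -0.34 ± 0.27 with TAF10.

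The flocculin genes were higher in depleted cells with every reference, but by amounts that changed with it. FLO1 changed in Flo- by 5.24 ± 0.22 relative to ACT1 and 7.10 ± 0.22 relative to TFC1, and in Flo+ by 5.43 ± 0.27 relative to ACT1 and 5.83 ± 0.27 relative to TFC1 (log2, standard error, n = 3 per group). FLO5 changed by 5.26 ± 0.12 in Flo- against 6.79 ± 0.20 in Flo+ relative to ACT1, and by 7.12 ± 0.19 in Flo- against 7.18 ± 0.22 in Flo+ relative to TFC1. In Flo-, FLO9 ran from 5.64 ± 0.27 with ACT1 to 7.50 ± 0.29 with TFC1. FLO10 was at 5.14 ± 0.15 with ACT1 in Flo-.

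**Figure D4:**
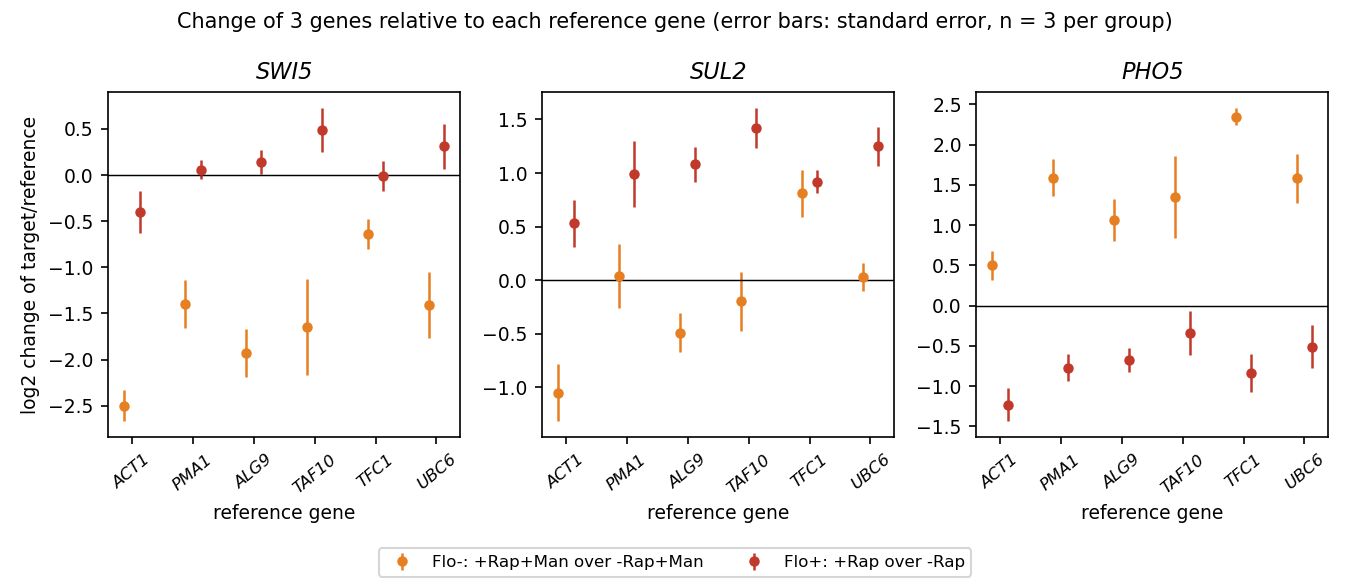
Log2 change of SWI5, SUL2 and PHO5 relative to each of the 6 reference genes (vertical axis; error bars are standard errors, n = 3 per group) in Flo- and Flo+. In Flo- the 3 genes are lowest relative to ACT1 and highest relative to TFC1, an order set by the changes of the references. SUL2 lies on both sides of 0.

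Mannose without rapamycin was the last comparison of the members, and it is confounded with sequencing run and read type. ACT1 was lower in -Rap+Man than in -Rap by 0.43 on the log2 scale (limma adjusted p = 0.043), with the sample values given above. It was 1 of 6 members called at an adjusted p of at most 0.05, against 50.5% of all genes, and the call was lost under 9 of 19 alternative settings. For the other 5 the log2 change lay between -0.12 and 0.04 and the whole interval within 1.5-fold. TFC1 was at 928 to 1337 in -Rap+Man and 987 to 1178 in -Rap, so the control groups overlapped for TFC1.

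Genes that work with each member were then counted, from lists chosen with earlier results of these data known, at an adjusted p of at most 0.05 with a change of any size. Of all genes tested, 1624 of 6325 rose and 1652 fell in Flo- (51.8% called in all), and 1408 of 6100 rose and 1238 fell in Flo+ (43.4%), and each count below is to be read against these shares. For ACT1, of 25 other actin cytoskeleton genes 5 rose and 7 fell in Flo-, and 0 rose and 1 fell in Flo+, with list medians of -0.19 and 0.02 (all genes: -0.04 and -0.02). In Flo- profilin PFY1 rose by 0.77, cofilin COF1 by 0.70 and the Arp2/3 subunits ARC40, ARC18 and ARC19 by 0.71, 0.48 and 0.48. The myosins MYO2, MYO5 and MYO3 fell by 0.88, 0.76 and 0.49 on the log2 scale, as did AIP1 by 0.68, the formin BNI1 by 0.66, SRV2 by 0.61 and coronin CRN1 by 0.35. MYO2 also fell by 0.37 in Flo+.

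For PMA1, of 7 genes of the proton pump 3 rose and 2 fell in Flo-, and 2 rose and 1 fell in Flo+, with medians of 0.29 and -0.02, against 51.8% of all genes called in Flo- and 43.4% in Flo+. HSP30, a stress protein of the plasma membrane that restrains the pump, rose by 2.68 in Flo- and 2.06 in Flo+. AST1, needed for delivery of the pump to the cell surface, fell by 0.99 in Flo- and 1.15 in Flo+. The small pump proteolipids PMP2 and PMP1 rose by 0.70 and 0.39 in Flo-. Of the kinases of the pump, HRK1 fell by 0.55 in Flo- and was at -0.02 in Flo+, and PTK2 was at 0.27 in Flo- and rose by 0.41 in Flo+. PMA2 passed in neither, at 0.29 and -0.08.

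For ALG9, of 15 other genes of N-glycan assembly 7 rose and 0 fell in Flo-, and 2 rose and 1 fell in Flo+, with medians of 0.30 and 0.09, against 51.8% of all genes called in Flo- and 43.4% in Flo+. ALG9 at 0.31 in Flo- thus lay next to its list median. DPM1, which makes dolichol phosphate mannose, the sugar donor of ALG9, rose by 1.26 in Flo- and 0.56 in Flo+. The mannosyltransferases ALG3 and ALG12, which act next to ALG9, rose by 0.86 and 0.70 in Flo-, the glucosyltransferases ALG6 and DIE2 by 0.84 and 0.55, and ALG13 and ALG14 by 0.71 and 0.70. In Flo+, ALG14 rose by 0.45 and ALG5 fell by 0.43.

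For TAF10, of 14 genes of TBP and its associated factors 0 rose and 9 fell in Flo-, and 0 rose and 4 fell in Flo+, with medians of -0.41 and -0.22, against 51.8% of all genes called in Flo- and 43.4% in Flo+. TAF5 fell by 1.01 in Flo- and 0.48 in Flo+, and SPT15, which encodes TBP itself, by 0.85 and 0.50 in the same order of experiments. TAF2, TAF1, TAF8, TAF12, TAF6, TAF14 and TAF7 fell by 0.69, 0.66, 0.62, 0.44, 0.44, 0.38 and 0.37 in Flo-. In Flo+, TAF4 and TAF12 fell by 0.54 and 0.30. TAF10 at -0.52 in Flo+ was thus near the low end of its list and at 0.02 in Flo- near the high end, where TAF9 was at 0.12, but without -Rap+Man replicate 1 its Flo- change was -0.24.

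For TFC1, of 8 other RNA polymerase III initiation factor genes 0 rose and 6 fell in Flo-, and 0 rose and 4 fell in Flo+, with medians of -0.57 and -0.23, against 51.8% of all genes called in Flo- and 43.4% in Flo+. In Flo- the TFIIIC subunits TFC3, TFC4, TFC7 and TFC8 fell by 0.86, 0.70, 0.58 and 0.57, PZF1, which encodes TFIIIA, by 0.56, and the TFIIIB subunit BDP1 by 0.44. In Flo+ TFC8, PZF1, TFC3 and BRF1 fell by 0.55, 0.53, 0.42 and 0.31. TFC1 was below every gene of this list in Flo- and above every one of them in Flo+.

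For UBC6, of 11 genes of degradation at the endoplasmic reticulum 1 rose and 1 fell in Flo-, and 2 rose and 0 fell in Flo+, with medians of 0.06 and 0.16, against 51.8% of all genes called in Flo- and 43.4% in Flo+. The ubiquitin ligase HRD1 rose by 0.42 in Flo- and 0.34 in Flo+, UBX2 fell by 0.55 in Flo-, and UBC7, the partner ubiquitin-conjugating enzyme, rose by 0.46 in Flo+. SSM4, the ligase that works with UBC6, passed in neither, at 0.03 and -0.05.

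The other scalings of the lists, and the values relative to the median gene, were added after seeing the data. With total counts in place of TMM factors, all list medians lay lower along with the median gene. In Flo- they were -0.81 for the actin cytoskeleton, -0.32 for the proton pump, -0.31 for N-glycan assembly, -1.03 for TBP-associated factors, -1.18 for RNA polymerase III initiation factors and -0.56 for degradation at the endoplasmic reticulum, so the directions for the proton pump, N-glycan assembly and degradation turned. In Flo+ the medians were -0.32, -0.36, -0.25, -0.56, -0.57 and -0.19 in the same order, and those for actin, N-glycan assembly and degradation turned. The counts changed too. With total counts, in Flo-, 0 of the actin genes rose and 19 fell, 1 of the pump genes rose and 2 fell, 1 of the N-glycan genes rose and 7 fell, 0 rose and 14 fell for TBP-associated factors, 0 and 8 for RNA polymerase III initiation factors and 0 and 7 for degradation. In Flo+ these were 0 and 8, 1 and 3, 0 and 7, 0 and 14, 0 and 8, and 0 and 4. For degradation in Flo+, 1 gene rose with median-of-ratios factors and 0 with the authors' normalized counts, where 2 had risen with TMM factors. The list medians of TAF10 and TFC1 were below 0 in both experiments with each of the 4 scalings.

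Other genes in use as references were counted in the same way. Of 13 in the table, 7 rose and 0 fell in Flo-, and 2 rose and 0 fell in Flo+, with medians of 0.62 and 0.09, against 51.8% of all genes called in Flo- and 43.4% in Flo+. The glycolytic genes TDH3, PGK1, TPI1 and FBA1 rose by 1.08, 1.07, 0.72 and 0.64 in Flo-, with QCR9 at 0.79, PDA1 at 0.69 and IPP1 at 0.47. In Flo+, QCR9 rose by 0.87 and TDH3 by 0.50. PGK1 in Flo- was the only gene of this list called at the study's thresholds. With total counts 2 rose and 4 fell in Flo-, with a median of 0.01, and 1 rose and 5 fell in Flo+, with a median of -0.26. The tubulin genes TUB1 and TUB2, CDC28 and TEF1 passed in neither experiment.

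**Figure D5:**
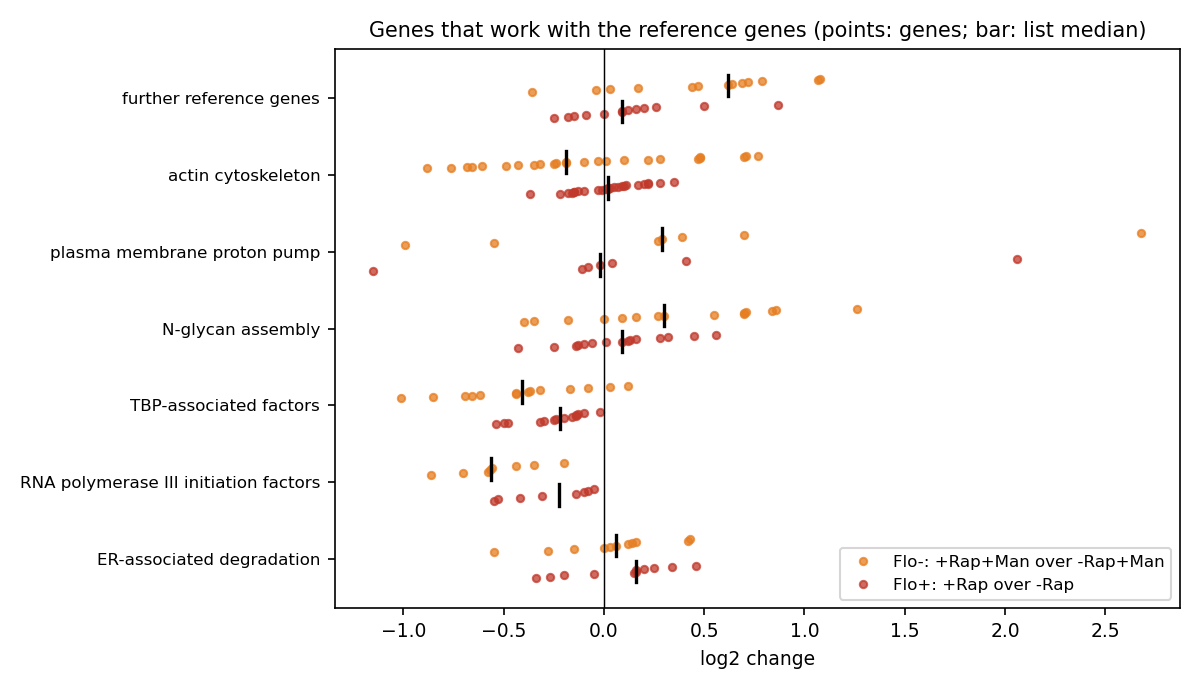
Log2 change (horizontal axis) of the genes in 7 lists, 1 point per gene, in Flo- (+Rap+Man over -Rap+Man) and Flo+ (+Rap over -Rap), with a bar at each list median. The genes of TBP-associated factors and RNA polymerase III initiation factors lie mostly below 0, and the further reference genes have medians of 0.62 in Flo- and 0.09 in Flo+.

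Finally, the genes whose pattern over the 12 samples was most like each member were found by the smallest SD of the log2 ratio, among 5237 other genes whose count reached 100 in each library. They were COQ9 (0.12) and YKL153W (0.123) for ACT1, YEF3 (0.138) and YBT1 (0.142) for PMA1, OLA1 (0.081) for ALG9, APC11 (0.102) and PSG1 (0.103) for TAF10, CDC39 (0.095) and MIP1 (0.104) for TFC1, and PPG1 (0.072) and RPT1 (0.080) for UBC6. For TFC1, CDC39 changed by -0.95 in Flo- and 0.07 in Flo+, and MIP1 by -0.98 and -0.15. For ACT1, COQ9 changed by 0.81 in Flo- and 0.49 in Flo+. No member was among the 2 genes most like another member.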

How the data were processed

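The authors trimmed reads of rRNA-depleted, strand-specific libraries with fastp 0.20.0, aligned them with STAR 2.7.3 to the S288c genome and used DESeq2. The counting tool and annotation release are not given in the sources used here. The authors deposited raw read counts for 6775 genes and the same counts divided by 1 size factor per sample, which held to 0.013%. The deposited log2 fold changes and adjusted p-values of the authors' own comparisons were not used. The deposited counts carry digit separators, so the unit check could not take them as counts, and limma 3.58.1 in R 4.3.3 was used in place of a count test.

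Genes were kept if 3 samples or more reached the CPM that 10 counts give in a library of median size, and if their counts summed to 15 or more. Samples were scaled by TMM factors (30% of log ratios and 5% of mean levels trimmed), 2 counts were added, and log2 values were fitted with a variance trend. The fold changes therefore are on the log2(value + 2) scale. Flo- and Flo+ had separate fits of 6 samples, and the difference and the mannose contrast came from 1 fit of all 12. Printed levels use the factors of all 12 samples. P-values are two-sided and adjusted by Benjamini-Hochberg over all genes of a comparison. Scripts were tested on simulated data. Named genes are the 6 members, the listed genes that passed or else moved most, the 2 most like each member and the 5 with the smallest SD. A result for 1 gene is not reported here. The members and lists were chosen with earlier results of these data known.

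Replicates of a group differed beyond counting noise, with a mean chi-square per gene of 33 to 341.3. According to the study's methods, cultures of an experiment were split into a treated and a control part. That same-numbered samples are parts of 1 culture was taken from the numbers and is not stated there. The deviations of same-numbered samples correlated (0.203 to 0.470 in Flo-, 0.122 to 0.243 in Flo+). An alternative fit therefore had the replicate number as a block. Other alternatives changed the scaling, filter, added counts, trend, samples and thresholds. The mannose concentration of 0.25 M comes from the methods, since its decimal point is missing in the labels. Coordinates are those of R64, in which 6216 of the gene identifiers were found.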

Additional observations from a re-analysis of the deposited data

Results flagged for a closer look

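The change of TFC1 after Cyc8p depletion differed between the experiments by -0.99 on the log2 scale (Flo- minus Flo+, limma adjusted p = 0.0057). All 3 +Rap+Man samples lay below all 3 -Rap+Man samples, and the +Rap and -Rap samples overlapped. The difference passed an adjusted p of 0.05 under all 19 alternatives tried, with values of -1.23 to -0.86 and adjusted p of 0.0021 to 0.021. Flocculation, mannose, sequencing run and read type changed together between the experiments and cannot be told apart.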

How the results depend on the processing

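Of 282 recomputed log2 changes of the 6 genes in Flo-, Flo+ and the difference, which leave out the mannose comparison, 250 kept their direction and side of the 0.05 threshold. The cause was not tested for the others. With total counts, in Flo-, ACT1 was 0.25, ALG9 -0.31, PMA1 -0.84, TAF10 -0.60 and UBC6 -0.83, in Flo+, ALG9 was -0.52, PMA1 -0.43 and TFC1 -0.37, and the UBC6 difference was -0.13. Flo- ALG9 missed the threshold with the authors' normalized counts (0.28) and without a trend (0.31), and Flo- TAF10 was -0.004 with the authors' counts and -0.01 in the 12-sample fit. With median-of-ratios factors the ALG9 difference passed at 0.51. For mannose, TFC1 was -0.04 and UBC6 -0.07 with total counts, and UBC6 -0.004 with median-of-ratios factors.

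Leaving out 1 sample gave 0.23 to 0.32 for ALG9 and -0.24 to 0.17 for TAF10 in Flo-, 0.27 to 0.48 for ACT1, -0.29 to 0.10 for PMA1, -0.09 to 0.04 for TFC1 and -0.39 to -0.28 for UBC6 in Flo+, 0.39 to 0.55 for ALG9 and -0.35 to 0.04 for PMA1 in the difference, and for mannose -0.27 to 0.12 for PMA1, -0.27 to 0.16 for TAF10, -0.09 to 0.17 for TFC1 and -0.07 to 0.10 for UBC6. Over all genes, calls at the study's thresholds numbered 1103 in Flo-, 797 in Flo+ and 241 in the difference, and calls of any size 3276, 2646 and 884. Total counts gave 2378 in Flo- and 1369 of any size in the difference. Leaving out 1 sample gave 136 to 254 in the difference (153, 151 and 136 without +Rap replicates 1, 2 and 3, 145 without +Rap+Man replicate 3), 1683 to 3501 of any size in Flo+ (1709 and 1683 without +Rap replicates 2 and 3) and 500 to 1014 of any size in the difference (577, 500 and 580 without +Rap replicates 1 and 3 and +Rap+Man replicate 3).

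With the replicate block no call of a member changed within the experiments or in the difference (ACT1 in Flo- 0.87, adjusted p = 0.014 in limma), and the mannose call of ACT1 was lost (-0.43, adjusted p = 0.067). M was 0.24 for ALG9 and 0.26 for TFC1 in Flo+ alone.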
